A study of Mus musculus with 5 samples.

Results

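The immediate-early response was followed through 10 genes in pancreatic acinar cells, which make and secrete the digestive enzymes: Fos, Fosb, Jun, Junb, Jund, Egr1, Atf3, Ier2, Zfp36 and Btg2. They were taken by symbol, and all 10 were found among the 23284 symbols of each of the 5 count tables. Poly(A) RNA had been sequenced from 3 knockout libraries (Arid1afl/fl;p48-Cre) and 2 control libraries (p48-Cre), all labelled as primary acinar cells of C57BL/6 mice at 8 weeks of age. Both groups carry p48-Cre, in which the p48 (Ptf1a) locus drives Cre recombinase in pancreatic cells, and in the knockouts it acts on floxed alleles of Arid1a, which encodes a subunit of the SWI/SNF chromatin remodelling complex. The minced pancreas of both groups was digested at body temperature, filtered, and left to recover in medium with serum before RNA extraction. No library of undissociated pancreas was analysed here, so how much of any level came from the dissociation was not measured. The labels do not say whether each library came from its own animal, and p-values therefore measure only the spread between libraries, which may be technical.

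Immediate-early genes are transcribed within minutes of a stimulus from factors already present in the cell, without new protein synthesis. Growth factors, serum and mechanical stress act through the MAP kinases ERK, JNK and p38 on serum response factor with its ternary complex partners and on CREB, and the transcripts are then removed quickly because many carry AU-rich decay signals. Enzymatic dissociation of tissue is a well known trigger of this response. Fos and Fosb pair with Jun, Junb or Jund to form AP-1, the dimeric factor that binds the TGANTCA motif. In the pancreas, AP-1 and Egr1 are known from the early response to injury and pancreatitis.

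The 3 knockout libraries held 3471701, 4049215 and 3609099 counts, against 291677 and 589798 in the control libraries. The ribosomal RNA precursor Rn45s took 6.78% to 10.9% of the knockout counts and 72.6% to 82.2% of the control counts. Levels are given as counts-per-million values (CPM) on each library's total without Rn45s and Lars2, which was 3155357 to 3568906 counts in the knockouts and 67514 and 72006 in the controls. On that scale a floor of 3 counts was worth 0.841 to 0.951 CPM in the knockouts and 44.4 and 41.7 CPM in the controls. Depth and the Rn45s share separated the libraries in the same way as genotype, and their effect cannot be told apart from that of genotype. Arid1a had 44, 121 and 42 counts in the knockouts and 0 and 3 in the controls. Whole-gene counts also cover exons outside any deleted part, so they do not check the genotype. Defining acinar markers were present, with 302099 to 337680 CPM over 7 genes in the knockouts and 295213 and 367886 CPM in the controls, although Amy2a5 was at 0 in every library. Of the 6 tested, edgeR called 2 lower in the knockouts. They were the elastase Cela2a (log2 fold change -2.55, edgeR adjusted p = 7.53e-05) and the lipase Cel (-2.28, edgeR adjusted p = 0.0055). DESeq2 instead called 0 of the 6 lower and 2 higher, and limma-voom called 1 lower.

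Knockouts 1 and 2 were high in the whole set and knockout 3 was low. The 10 genes summed to 4128, 8745 and 544 CPM in knockouts 1, 2 and 3, against 1555 and 930 CPM in controls 1 and 2. Knockouts 1 and 2 lay above both controls and knockout 3 below both, so the groups overlapped. The group means were 4472 ± 4111 CPM in the knockouts (SD, n = 3) and 1243 ± 442 CPM in the controls (SD, n = 2), a ratio of 3.60, or 1.88 without knockout 2. Pooled over libraries, 46056 knockout counts and 172 control counts gave a ratio of shares of 3.71, with an exact 95% binomial interval of 3.19 to 4.33. This interval, like all those below, covers counting error only and not the spread between libraries. No test was made on the sum, and 3 libraries against 2 cannot go below p = 0.1 in a one-sided exact permutation test.

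**Figure D1:**
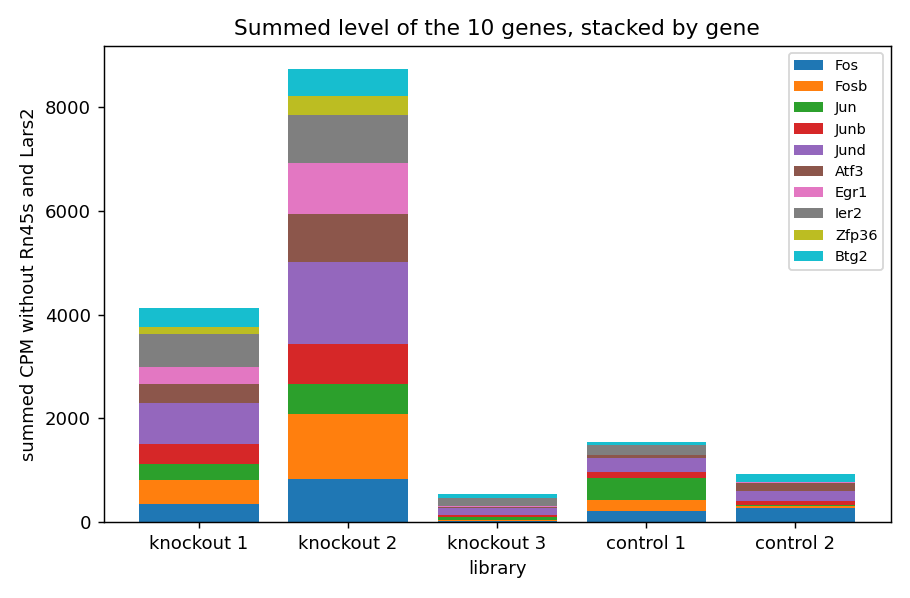
Summed CPM of the 10 immediate-early genes (vertical axis, CPM on the total without Rn45s and Lars2) in the 3 knockout and 2 control libraries, stacked by gene. Knockout 2 reached 8745 CPM and knockout 3 only 544 CPM, below the 1555 and 930 CPM of the controls.

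Across all genes, edgeR's quasi-likelihood test tested 8291, and the call was a Benjamini-Hochberg adjusted p under 0.05. Of the tested genes, 16 were called higher in the knockouts (0.193%) and 133 lower (1.6%). Egr1 was the single member called higher, and no member was called lower by edgeR, DESeq2 or limma-voom, nor was one lower at an unadjusted p under 0.05 (edgeR). At an unadjusted p under 0.05, 4 of the 10 were higher (edgeR), Fosb, Egr1, Ier2 and Zfp36, against 1.95% of all tested genes, while 910 of the 8291 tested genes, or 11.0%, were lower at that p. All 10 fitted log2 fold changes were above 0, as were 52.5% of all tested genes. Their median was 2.03, against 0.22 over all tested genes. That order turned without control 1 (3.03 for the members, against 6.06 for all tested genes) and without control 2 (1.79 against 5.57), and with no low-count filter the medians were 2.03 and 2.05. With genes lacking a control count set at their bound against the floor, the members' median was again 2.03 and that of the 5917 tested genes with a value was -0.83. Left out were 2374 genes under the floor, all without a control count and none a member. Leaving them out lowered the median of all genes but not that of the members, so this wider gap says nothing about the members. Every knockout library lay above both controls for 2 of the 10 members, Egr1 and Zfp36, where 35.6% of all tested genes did so and 11.2% lay below both controls. The members' count of 2 is below the share of all genes, but the 2 shares are not alike. Of all tested genes 33.5% had no control count, as did 1 of the 10 members. Such a gene lies above both controls wherever each knockout library holds a count. The split of calls depended on scaling. TMM factors on all counts called 382 genes higher and 76 lower, with the median of all genes at 2.12, and 2 members, Egr1 and Zfp36. DESeq2 called 753 of the 8291 genes higher and 310 lower, with the median of all genes at 1.42 and that of the members at 2.94. It called 8 members higher, all but Fos and Jun. Without knockout 1, no gene was called higher.

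**Figure D2:**
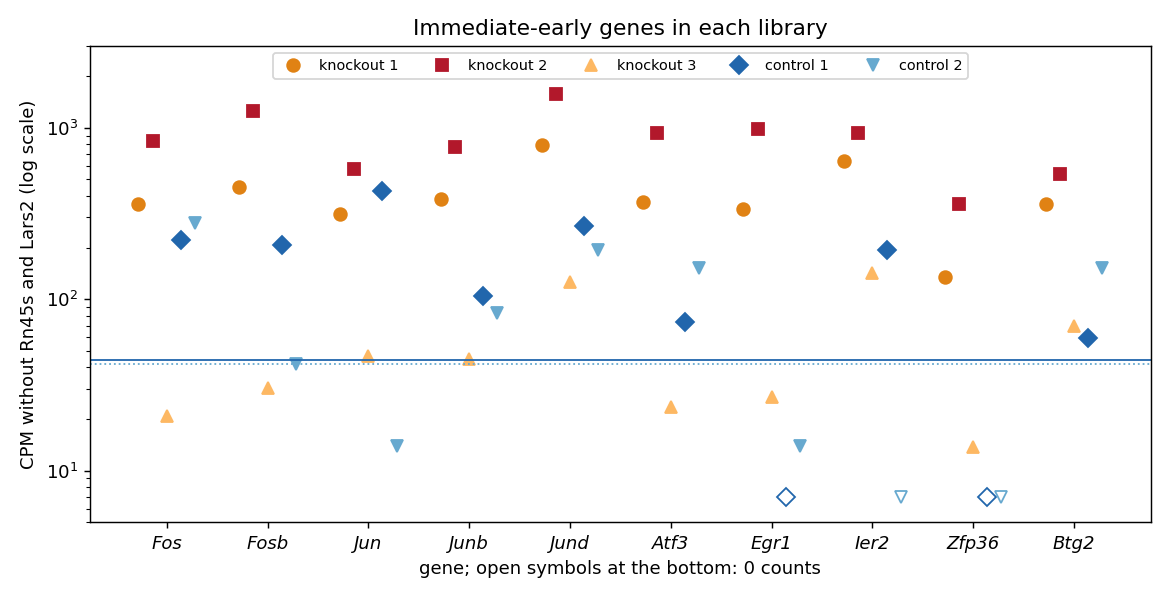
CPM of each immediate-early gene (vertical log axis) in every library, with the 3 knockouts left of the 2 controls for each gene. Open symbols at the bottom are libraries with 0 counts, and the solid and dotted lines are the 3-count floors of control 1 (44.4 CPM) and control 2 (41.7 CPM).

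The Fos family was high in knockouts 1 and 2 but ran below the controls in knockout 3. Fos, the founding AP-1 partner of Jun, stood at 359, 837 and 20.9 CPM in knockouts 1, 2 and 3, against 222 and 278 CPM in controls 1 and 2. Its knockout values therefore lay on both sides of a narrow control range, which rested on 15 and 20 counts. The fitted log2 fold change of Fos was 0.70 ± 1.02 (SE; edgeR adjusted p = 0.699), and it turned to -0.40 without knockout 2. Pooled counts gave a ratio of 1.66 (exact interval 1.19 to 2.38), and of 0.738 without knockout 2. Knockout 3 alone stood at 0.0834 of the pooled control share (0.0548 to 0.129). Fosb, a paralog whose product takes the same place in AP-1, had 453, 1251 and 30.5 CPM in the knockouts, against 207 and 41.7 CPM in the controls. Here too knockout 3 lay apart from the other knockouts and below both controls. The log2 fold change was 2.22 ± 1.08 (SE; edgeR adjusted p = 0.351) and the pooled ratio 4.89 (3.05 to 8.39). That ratio was 1.93 without knockout 2, 14.3 without control 1 and 2.87 without control 2. The controls differed from each other, control 1 being 4.98 times control 2 (exact interval 1.39 to 27.0) on 14 and 3 counts. The number of Fosb counts per Fos count was 1.26, 1.50 and 1.46 in the knockouts, against 0.933 and 0.150 in the controls. That ratio was thus nearly level across knockouts whose Fos levels differed 40.0-fold.

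The Jun family gives the DNA-binding partners of Fos. Jun, the main target of JNK, had 312, 578 and 46.3 CPM in the knockouts, against 430 and 13.9 CPM in the controls. Both groups were spread widely and overlapped, and control 2 held 1 count of Jun where control 1 held 29. The exact interval of the ratio of control 1 to control 2 was 5.13 to 1263. Its log2 fold change was 0.50 ± 1.04 (SE; edgeR adjusted p = 0.801), -0.46 without control 2 and -0.30 without knockout 2. The pooled ratio of Jun was 1.48 (exact interval 1.03 to 2.2), and it was 0.816 without knockout 2, 22.9 without control 1 and 0.740 without control 2. Junb, a Jun relative that often restrains Jun activity, had 382, 776 and 44.5 CPM in the knockouts and 104 and 83.3 CPM in the controls. Jund, the family member that is present in most cells before a stimulus, had 789, 1569 and 126 CPM in the knockouts and 267 and 194 CPM in the controls. For Junb and Jund the controls lay close together, knockouts 1 and 2 lay above both, and knockout 3 below both. Junb had a log2 fold change of 2.10 ± 1.14 (SE; edgeR adjusted p = 0.431) and a pooled ratio of 4.39 (2.57 to 8.26), or 2.24 without knockout 2. Jund had a log2 fold change of 1.85 ± 0.99 (SE; edgeR adjusted p = 0.424) and a pooled ratio of 3.69 (2.61 to 5.39), or 1.95 without knockout 2. Neither passed the test. Knockout 3 alone was at 0.478 of the pooled control share for Junb (0.271 to 0.919) and at 0.551 for Jund (0.385 to 0.817). Jun counts per Jund count were 0.396, 0.368 and 0.366 in the knockouts, against 1.61 and 0.0714 in the controls.

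Egr1, a zinc finger factor induced through serum response factor, rose in the knockouts. It had 335, 987 and 26.9 CPM in the knockouts, against 0 and 13.9 CPM in the controls, or 1056, 3522 and 90 counts against 0 and 1. Every knockout library was above both controls, but knockout 3 was under the 3-count floor of either control library. The log2 fold change was 5.97 ± 1.58 (SE; edgeR adjusted p = 0.0173), and pooled counts gave a ratio of 64.7 (exact interval 11.6 to 2555). The ratio was 24.6 without knockout 2 and 33.4 without control 1, and without control 2 no control count remained. At the pooled knockout share the controls would have held 64.7 counts of Egr1, and at the share of knockout 3 they would have held 3.75, against the 1 found. The ratio of knockout 3 alone to the pooled controls was 3.75, with an interval of 0.657 to 150. The call was lost without knockout 1 (adjusted p = 0.577), without knockout 2 (0.167) and without control 1 (0.0717), by edgeR in each case. It was also lost with upper quartile (0.0949) and RLE factors (0.0577), with the total that leaves out the enzymes (0.0599) and with limma-voom (1.00).

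Atf3, a stress-induced member of the ATF/CREB family, followed the Fos pattern, with 370, 927 and 23.6 CPM in the knockouts, against 74.1 and 153 CPM in the controls. Knockout 3 was again below both controls, at 0.206 of their pooled share (0.119 to 0.378). Its log2 fold change was 1.95 ± 1.10 (SE; edgeR adjusted p = 0.456), with a pooled ratio of 3.95 (2.43 to 6.91). Without knockout 2 the log2 fold change was 0.79 and the pooled ratio 1.67, and without control 2 the ratio was 6.11. Ier2, a small nuclear protein induced with Fos and Jun, had 635, 926 and 142 CPM in the knockouts, against 193 and 0 CPM in the controls. Knockout 3 lay between the controls, which held 13 and 0 counts. The log2 fold change of Ier2 was 2.57 ± 1.11 (SE; edgeR adjusted p = 0.255) and its pooled ratio was 6.16 (3.60 to 11.6), or 4.09 without knockout 2 and 2.98 without control 2. Without control 1 no control count remained.

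The set also holds a pair of genes that act on RNA or growth. Zfp36 encodes tristetraprolin, which binds AU-rich elements and speeds the decay of early transcripts. It had 134, 359 and 13.8 CPM in the knockouts, or 423, 1283 and 46 counts, and no count in either control. Measured against a floor of 3 counts over both controls together, 21.5 CPM, the knockout mean was 7.86 times as high, or 3.44 times without knockout 2. The lower limit of the exact interval of the pooled ratio was 6.57, a smaller bound. Knockout 3 lay under that floor, and its share would give 1.92 counts over both controls, so a difference from knockout 3 was not detectable at this depth. Zfp36 did not pass the test (edgeR adjusted p = 0.0589). Btg2, an antiproliferative protein that promotes removal of the poly(A) tail, had 359, 535 and 69.7 CPM in the knockouts, against 59.2 and 153 CPM in the controls. Knockout 3 lay between the controls, and the log2 fold change was 1.60 ± 1.13 (SE; edgeR adjusted p = 0.562), with a pooled ratio of 3.03 (1.83 to 5.41), or 1.95 without knockout 2 and 5.49 without control 2.

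Levels of different genes were compared per kilobase of annotated exon (GENCODE vM21, GRCm38). Mean levels in the knockouts ran from 496 CPM per kb for Jund and 373 for Ier2, through 205 for Atf3, 174 for Junb, 172 for Fos, 117 for Btg2, 100 for Egr1, 97.9 for Jun and 92.6 for Fosb, to 48.7 for Zfp36. In the controls Jund was also first at 138 CPM per kb, ahead of Fos at 106, Jun at 69.5 and Ier2 at 63.3, while Egr1 was at 1.55 and Zfp36 had no count. In the knockouts, neighbours in this order differed by less than the SD over libraries. That SD includes the rise and fall that the genes shared, so it does not measure the order within a library. Ier2 was above Atf3 in each knockout, at 417, 608 and 93.1 CPM per kb against 172, 431 and 11.0. Fosb was also above Zfp36 in each, while the other neighbours changed order between knockouts. Jund, for example, had 473, 941 and 75.8 CPM per kb in knockouts 1, 2 and 3, and Ier2 had 417, 608 and 93.1, so knockout 3 reversed their order. In the controls Jund had 160 and 117 CPM per kb and Fos 94.5 and 118, which overlapped.

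The make-up of the set could be compared within a library, where the scaling total cancels. Egr1 made up 8.11%, 11.3% and 4.94% of the 10 genes' counts in knockouts 1, 2 and 3, against 0.581% in the pooled controls (1 of 172 counts, exact 95% interval 0.0147% to 3.20%). Each knockout share was above the upper limit for the pooled controls. It was also above the limit of control 1 alone, with 0 of 105 counts (up to 3.45%). Control 2 alone, with 1 of 67 counts, had an interval of 0.0378% to 8.04%, which holds the share of knockout 3. Set against Fos alone, Egr1 gave 48.2%, 54.1% and 56.2% of the counts of both genes in the knockouts. In the controls it gave 0 of 15 and 1 of 21, or 2.78% pooled, with an interval of 0.0703% to 14.5%. Beside Fos, this within-library contrast therefore held in knockout 3, where both genes were low. Beside Jund it was smaller there, so it depended on the reference gene. Egr1 counts per Jund count were 0.424, 0.629 and 0.213 in knockouts 1, 2 and 3. They were 0 and 0.0714 in controls 1 and 2, on 18 and 14 Jund counts. Zfp36 and Fos showed a like contrast, with Zfp36 at 27.2%, 30.1% and 39.7% of both in the knockouts, against 0 of 35 counts in the pooled controls, which allows up to 10.0% by the exact interval. Fosb and Atf3 also took more beside Fos, so the direction was not particular to Egr1 and Zfp36. Fosb gave 58.9% of both in the pooled knockouts and 32.7% in the pooled controls (20.3% to 47.1%). Atf3 gave 52.1% and 31.4% (19.1% to 45.9%).

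Fos went the other way within the set, with 8.70%, 9.57% and 3.84% of the 10 genes' counts in the knockouts, against 20.3% in the pooled controls (14.6% to 27.1%). Its share was 14.3% in control 1, with an interval of 8.22% to 22.5% that holds the shares of knockouts 1 and 2, and 29.9% in control 2 (19.3% to 42.3%). Jun made up 6.95% in the pooled knockouts and 17.4% in the pooled controls, but its control share was 27.6% in control 1 and 1.49% in control 2. Jund held its place, at 18.5% in the pooled knockouts and 18.6% in the pooled controls (13.1% to 25.2%). Among the knockouts, knockout 3 kept relatively more Ier2, at 26.0% of the set against 15.4% and 10.6% in knockouts 1 and 2. Btg2 was likewise at 12.8% of the set in knockout 3, against 8.70% and 6.12% in knockouts 1 and 2. No test across libraries was made on these shares.

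**Figure D3:**
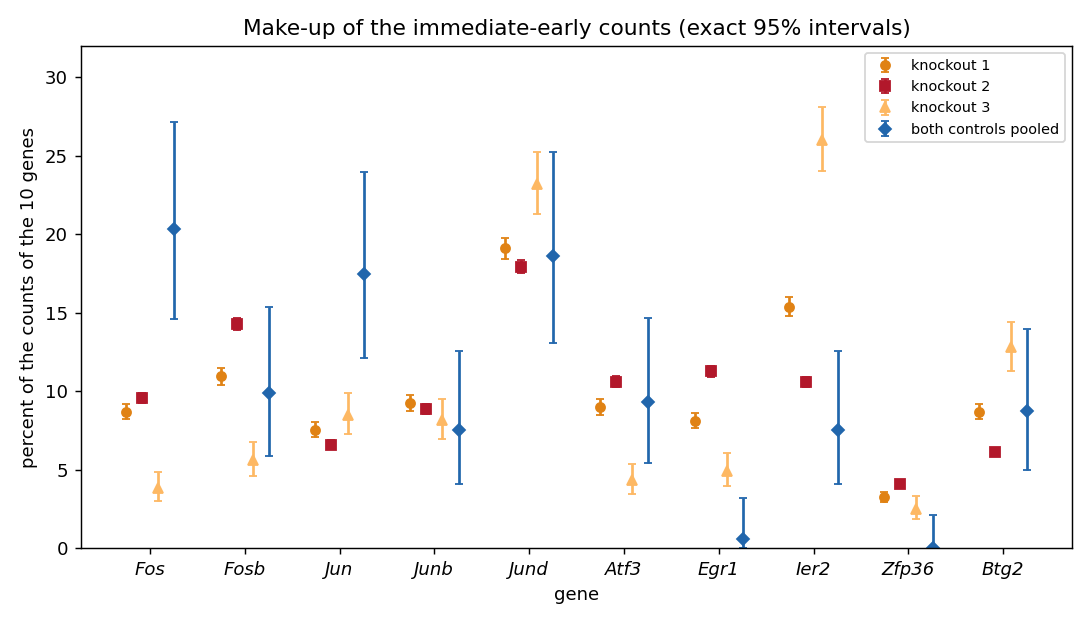
Percent of the counts of the 10 genes that each gene took (vertical axis), in each knockout library and in both controls pooled, with exact 95% binomial intervals as bars. Egr1 stands at 4.94% to 11.3% in the knockouts and 0.581% in the controls, while Fos stands at 3.84% to 9.57% and 20.3%.

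The spread among the 3 knockouts was wide for the whole set. Each of the 10 genes was highest in knockout 2, next in knockout 1 and lowest in knockout 3. That order was common, being found for 76.6% of the 2103 genes with a knockout mean of at least 20 CPM. The size of the gap differed by gene. The highest knockout over the lowest was 41.0 for Fosb, 40.0 for Fos, 39.3 for Atf3, 36.7 for Egr1 and 26.1 for Zfp36. It was 17.4 for Junb, 12.5 for Jun and 12.4 for Jund, and only 7.68 for Btg2 and 6.53 for Ier2. All 10 spread at least 4-fold, where 43.3% of the 2103 genes did, and the members' median was 21.8 against 3.50. Of the 2103 genes, 1.52% spread at least as far as Fosb and 22.6% at least as far as Ier2.

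Most of the gap lay between knockout 3 and the other knockouts. Knockout 1 was 17.2 times knockout 3 for Fos and 4.48 times for Ier2, while knockout 2 was 2.33 times knockout 1 for Fos and 1.46 times for Ier2. The share of counts taken by digestive enzymes moved with this order, at 79.0%, 67.5% and 87.4% in knockouts 1, 2 and 3, against 66.4% and 70.2% in the controls. Scaled instead to the total without enzymes (CPM of non-enzyme counts), the 10 genes summed to 19674, 26912 and 4316 in the knockouts, against 4631 and 3123 in the controls. On that scale knockout 3 lay between the controls and the spread of the sum over knockouts was 6.24 in place of 16.1. Of the members, 8 still spread at least 4-fold, with a median of 8.45, where 16.9% of the 2103 genes did, with a median of 2.01. Fosb spread 15.9-fold, Fos 15.5-fold and Atf3 15.2-fold on this scale, and Ier2 2.70-fold.

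**Figure D4:**
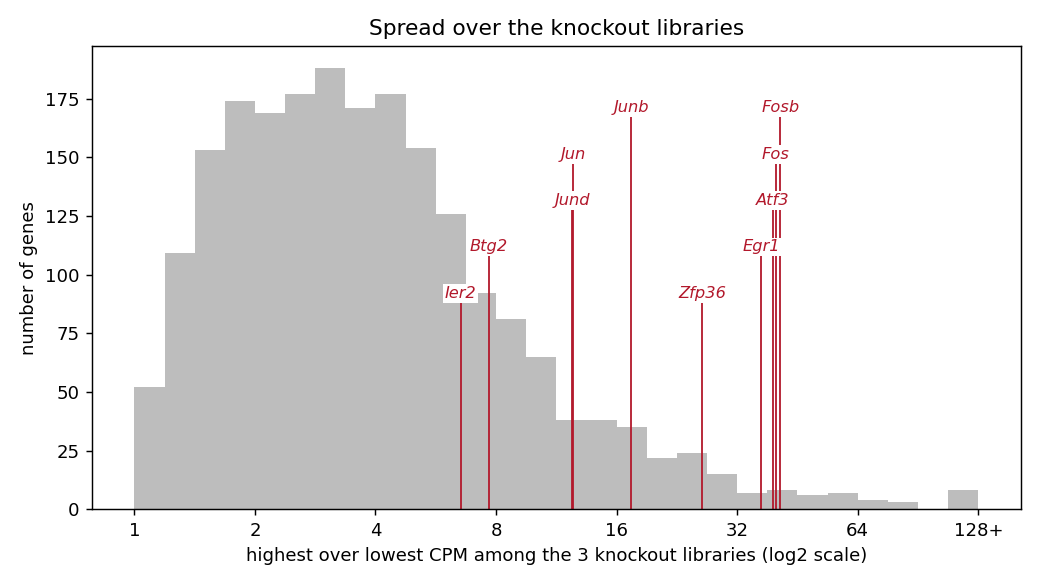
Histogram of the highest over the lowest CPM among the 3 knockout libraries (horizontal log2 axis) for the 2103 genes with a knockout mean of at least 20 CPM, with the 10 immediate-early genes as vertical lines. The members run from 6.53 (Ier2) to 41.0 (Fosb), against a median of 3.50 over all these genes, and the heights of the lines carry no value.

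Promoter sequence was examined because the genes shared 1 order across the knockouts. RefSeq starts on GRCm38.p6 were available for 8 of the 10 members, Egr1 and Ier2 being the exceptions, and the 250 bases before each start were searched on both strands, as were 32851 such windows in all. The half-site of the CREB and ATF element, TGACG, occurred in 5 of the 8 windows (Fos, Fosb, Junb, Atf3 and Btg2) and in 17.8% of all windows. The full palindrome TGACGTCA, which contains it, occurred in Btg2 and in 1.55% of all windows. The CArG box, the serum response factor motif, was found in Zfp36 and in 1.47% of all windows. The AP-1 motif TGANTCA was in 0 of the 8 and in 6.75% of all windows. GGGCGG, the core of the Sp1 motif, was in 6 of the 8 and in 32.7% of all, and GCGNGGGCG, the Egr motif, was in Btg2, Fosb and Zfp36 and in 4.70% of all. TATAAA was in Fos and in 12.4% of all. A match is only a description of the letters. Sequence beyond the 250 bases was not searched, so the lack of a match does not show that a gene lacks the site. The 120 bases before the start are printed for the members with a TGACG or CArG match, 180 for Btg2, 5′ to 3′ on the strand of the gene. They lie at chr12:85473770-85473889 (plus strand, Fos), chr7:19310046-19310165 (minus, Fosb), chr8:84978749-84978868 (minus, Junb), chr1:191183334-191183453 (minus, Atf3), chr1:134079156-134079335 (minus, Btg2) and chr7:28379229-28379348 (minus, Zfp36). Capitals mark TGACG on either strand, the palindrome in Btg2, or the CArG box in Zfp36.
Fos: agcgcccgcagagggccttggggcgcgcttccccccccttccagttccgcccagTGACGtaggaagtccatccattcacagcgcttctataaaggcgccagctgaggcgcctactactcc
Fosb: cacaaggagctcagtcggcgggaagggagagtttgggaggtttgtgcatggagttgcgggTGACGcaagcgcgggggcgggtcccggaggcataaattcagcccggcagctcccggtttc
Junb: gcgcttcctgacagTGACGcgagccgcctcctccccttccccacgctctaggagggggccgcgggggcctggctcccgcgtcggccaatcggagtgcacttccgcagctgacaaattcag
Atf3: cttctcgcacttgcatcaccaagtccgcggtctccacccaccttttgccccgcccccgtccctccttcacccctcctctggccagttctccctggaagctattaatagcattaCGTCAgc
Btg2: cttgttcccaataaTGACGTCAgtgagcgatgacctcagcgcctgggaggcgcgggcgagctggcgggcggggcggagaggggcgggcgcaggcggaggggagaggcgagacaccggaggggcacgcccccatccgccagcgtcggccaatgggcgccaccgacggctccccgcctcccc
Zfp36: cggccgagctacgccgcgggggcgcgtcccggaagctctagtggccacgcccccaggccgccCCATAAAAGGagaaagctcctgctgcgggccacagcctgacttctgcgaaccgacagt

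The MAP kinase cascade carries the stimulus to these genes. Of its 16 tested members, none was called by edgeR or limma-voom. DESeq2 called 3 of the 16 higher, against 753 of all 8291 tested genes, a share that applies to each list below as well. At an unadjusted p under 0.05, 0 of the 16 were higher and 1 lower (edgeR), against 11.0% of all tested genes lower. The median log2 fold change of the cascade was 0.11, or 0.03 with bounds. The 17 of 18 listed genes found in the tables summed to 404, 642 and 167 CPM in the knockouts, against 548 and 431 CPM in the controls. The kinase Map2k2 (MEK2) had 135, 134 and 52.6 CPM in the knockouts and 44.4 and 69.4 CPM in the controls. Mapk14 (p38α) had 25.7, 49.0 and 13.2 CPM against 133 and 0 CPM. Serum response factor (Srf), the factor on which many early promoters depend, had 53.9, 96.7 and 3.29 CPM in the knockouts and 14.8 and 13.9 CPM in the controls, with 1 count in each control. None of the 4 tested genes of serum response factor and its partners was called by edgeR, DESeq2 or limma-voom (0 at an unadjusted p under 0.05, edgeR).

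Other genes of the response shared the order of the knockouts. Of 20 tested growth factor induced transcription factors, none was called by edgeR or limma-voom and 2 were called higher by DESeq2, and 0 were higher or lower at an unadjusted p under 0.05 (edgeR). Their log2 fold changes were above 0 for 18 of 20, with a median of 1.59, or 1.04 with bounds. They summed to 878, 1678 and 97.5 CPM in the knockouts, against 696 and 458 CPM in the controls, a pooled ratio of 1.57 (1.26 to 1.99). The orphan nuclear receptor Nr4a1 had 76.1, 262 and 4.48 CPM in the knockouts and 0 and 111 CPM in the controls. Klf6 had 235, 342 and 20.6 CPM against 133 and 41.7 CPM, and Klf2, a zinc finger factor of the same family, had 156, 162 and 17.3 CPM against 237 and 167 CPM. Klf2 was thus below both controls in each knockout library. All 14 of these factors with a knockout mean of at least 20 CPM ran in the order knockout 2, 1, 3, with a median spread of 20.8. The remaining AP-1 and CREB/ATF genes, such as Atf4 of the amino acid response, summed to 307, 652 and 80.1 CPM in the knockouts and 296 and 375 CPM in the controls. That is a pooled ratio of 1.05 (0.788 to 1.43), and 0 of 8 tested members were called by edgeR or limma-voom and 1 was higher by DESeq2 (0 higher and 1 lower at an unadjusted p under 0.05, edgeR).

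The feedback genes that end the response gave 1 call. Spry4, a Sprouty inhibitor of receptor tyrosine kinase signalling, fell in the knockouts, with 2, 9 and 2 counts there against 9 and 1 in the controls, a log2 fold change of -5.79 (edgeR adjusted p = 0.0186). Control 1 alone held 9 of the 10 control counts, which made 133 CPM there. The other 12 tested feedback genes were not called by edgeR (2 higher at an unadjusted p under 0.05), and DESeq2 called 5 higher and limma-voom 0. The MAP kinase phosphatase Dusp1 had 102, 228 and 12.0 CPM in the knockouts, against 44.4 and 0 CPM in the controls. Errfi1, an inhibitor of the EGF receptor, had 76.7, 149 and 9.27 CPM in the knockouts and no control count, and Socs3, an inhibitor of cytokine signalling, had 76.4, 118 and 13.8 CPM and no control count. The 18 feedback genes summed to 401, 849 and 68.5 CPM in the knockouts and 326 and 27.8 CPM in the controls (pooled ratio 2.61, 1.75 to 4.08), and their median log2 fold change was 2.38, or 0.50 with bounds.

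Transcripts of NF-kB feedback and early inflammation summed to 282, 507 and 44.2 CPM in the knockouts, against 133 and 69.4 CPM in the controls, on 9 and 5 control counts. Nfkbiz, a nuclear IκB protein, had 85.3, 155 and 12.3 CPM in the knockouts and 59.2 and 0 CPM in the controls. None of the 12 tested members was called by edgeR or limma-voom and 2 were higher by DESeq2 (1 higher and 1 lower at an unadjusted p under 0.05, edgeR), and 8 of them had no control count. Heat shock genes, also raised by dissociation, summed to 935, 1539 and 203 CPM in the knockouts and 415 and 528 CPM in the controls, a pooled ratio of 1.92 (1.50 to 2.48). The chaperone Hsp90ab1 had 311, 595 and 47.2 CPM in the knockouts, against 296 and 278 CPM in the controls, while Hspb1 had 138, 147 and 26.6 CPM and no control count. None of 13 was called by edgeR or limma-voom and 5 were higher by DESeq2 (1 higher at an unadjusted p under 0.05, edgeR), and the median was 2.06, or 1.41 with bounds. Other early stress and cytoskeletal genes summed to 1291, 2471 and 280 CPM in the knockouts and 948 and 680 CPM in the controls (pooled ratio 1.70, 1.41 to 2.06), with 0 of 20 called by edgeR or limma-voom and 4 higher and 1 lower by DESeq2 (2 higher and 2 lower at an unadjusted p under 0.05, edgeR). The 2 lower of 20 are close to the 11.0% of all tested genes.

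Decay factors related to Zfp36 and Btg2 were examined beside them. The AU-rich decay and deadenylation list summed to 157, 326 and 46.3 CPM in the knockouts, against 341 and 83.3 CPM in the controls (pooled ratio 0.867, 0.602 to 1.30). Zfp36l1, a Zfp36 paralog, had 69.7, 138 and 12.3 CPM in the knockouts and no control count, whereas the paralog Zfp36l2 had 6.97, 21.6 and 2.39 CPM against 74.1 and 13.9 CPM. The BTG and TOB family apart from Btg2 had a pooled ratio of 0.955 (0.531 to 1.92), with Tob1 at 30.4, 74.8 and 11.1 CPM in the knockouts and 44.4 and 13.9 CPM in the controls. No member of the decay or BTG and TOB list was called by edgeR or limma-voom, and 1 decay gene was higher by DESeq2 and 1 at an unadjusted p under 0.05 (edgeR). The median log2 fold changes of the lists not given above were 7.21 for NF-kB genes, 1.20 for AP-1 and CREB/ATF genes, 0.83 for stress genes, -0.42 for decay genes, 0.42 for the BTG and TOB family, 1.01 for the genes taken as not induced early and 4.40 for serum response factor and its partners, against 0.22 for all tested genes. With bounds they were 0.44, 0.83, 0.53, -1.80, -0.31, 0.69 and 1.20 in the same order, against -0.83. They rest on the 6, 7, 17, 9, 2, 10 and 2 genes that had a value, against 5917 of all tested genes. Genes taken as not induced early summed to 4425, 6774 and 2621 CPM in the knockouts and 4014 and 1958 CPM in the controls. The spread of this sum over the knockouts was 2.58, and 1.01 on the total without enzymes, where that of the 10 members was 6.24. Gene by gene, the median spread without enzymes was 1.81 for the 10 of them with a knockout mean of at least 20 CPM. It was 8.45 for the members and 2.01 for all 2103 genes at that mean. None of their 12 tested genes was called by edgeR or limma-voom and 3 were higher by DESeq2 (0 at an unadjusted p under 0.05, edgeR). Actb, one of them, is itself responsive to serum and had 821, 1660 and 216 CPM in the knockouts against 815 and 125 CPM in the controls.

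**Figure D5:**
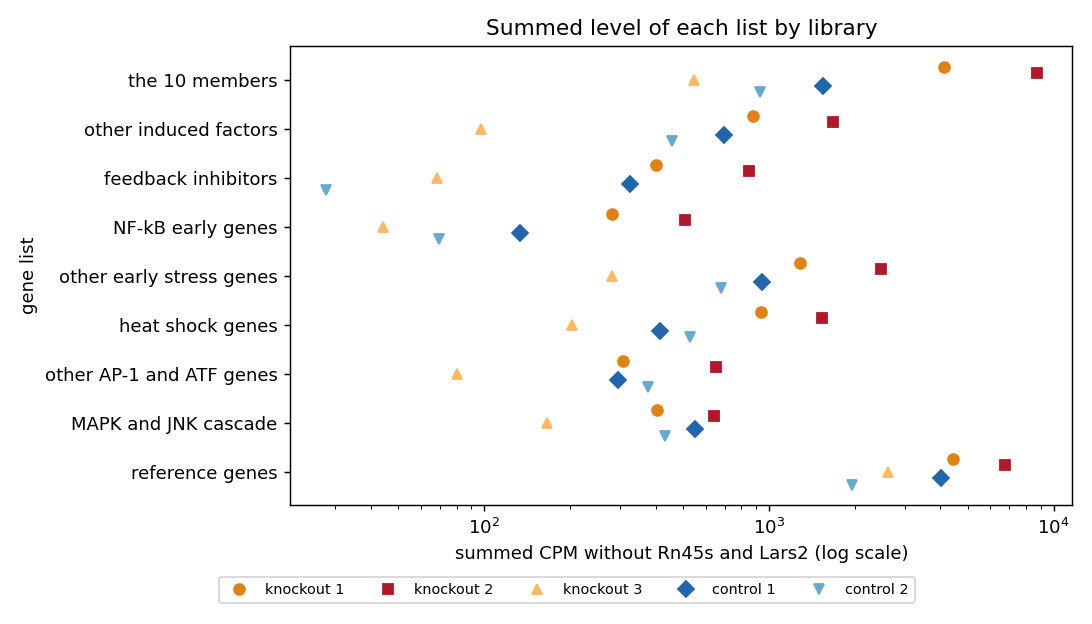
Summed CPM of the 10 members and of each related gene list (rows) in every library (horizontal log axis). Knockout 3 lies below both controls for the 10 members and for the other induced factors, stress, heat shock, AP-1 and kinase lists and for NF-kB genes, and between the controls for feedback inhibitors and reference genes.

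Among all other genes, those whose profile over the 5 libraries was nearest to the members' mean profile were Krt8, Cd14, Tagln2, Ctsl, Dnajb1, Por, Ifrd1, Rhob, Krt18 and Rac1. Likeness was the root mean square distance between centred log2(CPM + 10) values, over the 872 genes that averaged 50 CPM or more across the libraries. Krt8, an epithelial keratin, lay at 0.24 with 647, 1135 and 90.0 CPM in the knockouts, against 104 and 69.4 CPM in the controls. Cd14, a macrophage marker, lay at 0.31 with 53.9, 204 and 4.48 CPM in the knockouts, against 14.8 and 0 CPM in the controls. The other tested macrophage markers had log2 fold changes below 0, C1qa -2.10, C1qb -2.13 and Csf1r -0.90, and none of the 4 was called by edgeR, DESeq2 or limma-voom (0 at an unadjusted p under 0.05, edgeR). Of the members themselves, Junb (0.27) and Jund (0.32) were near the mean profile, while Jun (1.15), Egr1 (1.26) and Ier2 (1.43) were far from it, where the median of all genes compared was 1.68. With the enzymes left out of the scaling total, 1 of these 10 neighbours was kept. The cut of 50 and the added 10 stayed the same on that scale, where all values are larger. Which genes could be compared therefore changed as well.

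Markers of other cells also differed between libraries, and in this bulk RNA fewer cells of a type and less RNA per cell cannot be told apart. Endothelial markers summed to 158, 207 and 39.8 CPM in knockouts 1, 2 and 3, and all 7 of them, Pecam1 and Cdh5 included, were at 0 in both controls. Macrophage markers summed to 65.9, 256 and 21.5 CPM in the knockouts, against 59.2 and 69.4 CPM in the controls, with 3 of 7 at 0 in both controls. Without Cd14 they summed to 12.0, 51.3 and 17.0 CPM in the knockouts, against 44.4 and 69.4 CPM in the controls, on 3 and 5 control counts. Duct markers stood at 373, 1164 and 271 CPM in the knockouts and 755 and 653 CPM in the controls, with 2 of 7 at 0 in both controls. Islet markers stood at 172, 905 and 213 CPM against 104 and 680 CPM, with 5 of 7 at 0 in both controls. Stromal markers stood at 18.1, 88.5 and 9.27 CPM against 14.8 and 222 CPM, with 4 of 7 at 0 in both controls. Lymphocyte markers stood at 17.1, 86.3 and 17.0 CPM against 311 and 27.8 CPM, with 5 of 8 at 0 in both controls. Granulocyte markers stood at 15.2, 9.25 and 0.897 CPM against 0 and 55.6 CPM, with 2 of 3 at 0 in both controls. Adipocyte markers stood at 122, 89.9 and 8.67 CPM against 44.4 and 0 CPM, with 3 of 4 at 0 in both controls, and all 4 globin genes of red cells were at 0 in every library. Knockout 2 was thus the highest knockout for the duct, islet, endothelial, stromal, macrophage and lymphocyte markers as well as for the early genes. The part of these cells in the early gene levels was not tested.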

How the data were processed

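RNA of 5 libraries was measured by sequencing, and the authors deposited raw read counts per gene symbol, with no normalization. Per the submitters' processing notes, the build was mm9 and the tools were Cuffdiff 2.2.1.5, Cuffnorm 2.2.1.2, HTSeq 0.9.1 and TopHat2 2.1.1, with no roles given. Annotation, strand setting and handling of multi-mapping reads: not given in the sources used here. The kit does not mark strand, so overlapping and antisense genes cannot be told apart.

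From the deposited counts, edgeR 4.0.16 in R 4.3.3 fitted group as the only term by quasi-likelihood (glmQLFit with robust estimation, glmQLFTest, two-sided, filterByExpr). Library sizes were totals without Rn45s and Lars2, with no further factor. P-values were Benjamini-Hochberg adjusted over all 8291 tested genes. Of these, 2775 (33.5%) had no control count, and their fitted log2 fold changes depend on the prior count, so bounds used the knockout mean over 3 pooled control counts (21.5 CPM), and genes under that floor got no value. Intervals are exact Clopper-Pearson at 95% and, like the floors, cover counting error only. The fitted common dispersion was 0.674. The script was tested on simulated data with that dispersion. Of tested genes with a true log2 fold change of 6 it called 40%, and at -6 it called 72.2%. At 4 it called 6%, at -4 it called 17.4%, and with no true change 0 of 8728. Most rises of 4 were thus missed, more often than falls of that size, and no change as small as the members' median was simulated.

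Alternatives were TMM, RLE and upper quartile factors, other totals and filters, DESeq2 1.42.0, limma-voom (limma 3.58.1), a block on the replicate number and each library left out. Named were the 10 members, Rn45s, Lars2, Arid1a, the 4 most abundant members and any called member of each list, of which a part is printed, and the 10 nearest genes. Members and lists were chosen with earlier results of these data known. Promoters came from RefSeq GRCm38.p6 and exon lengths from GENCODE vM21, both matched by symbol.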

Additional observations from a re-analysis of the deposited data

How the results depend on the processing

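Genes called higher and lower in the knockouts numbered 16 and 133 in the edgeR test as reported. They numbered 382 and 76 with TMM factors on all counts, 578 and 80 with TMM factors without Rn45s and Lars2, and 9 and 255 with upper quartile factors. RLE factors called 59 lower, no low-count filter 898 lower and a mean of at least 50 CPM 49 higher. DESeq2 called 753 and 310, and limma-voom called 0 higher (800 genes at an unadjusted p under 0.05, 113 lower). With 1 library left out, 0 to 19 were called higher and 4 to 378 lower. Of the 10 members, 1 was called as reported. The number was 2 with either TMM setting, with no filter and at 50 CPM, 8 with DESeq2, and 0 with upper quartile or RLE factors, limma-voom or the total without enzymes. It was 0 to 2 with a library left out. Fitted log2 fold changes of members turned sign in 4 cases, Fos to -0.46 with limma-voom and -0.40 without knockout 2, and Jun to -0.46 without control 2 and -0.30 without knockout 2, and with 1 library left out they reached at most 1.26 for Fos and 4.49 for Jun. The median of all genes was 0.22 as reported, 2.12 and 2.18 with the TMM settings, 1.72 with RLE factors and -0.81 with limma-voom, and under both TMM settings Fos and Jun lay below it. It was 6.06 without control 1 and 5.57 without control 2, where the members' medians were 3.03 and 1.79 and 2 of 10 members lay above it, and 2.05 with no filter, where the members' median was 2.03 and 5 lay above it. With upper quartile factors it was 0.28, with 9 members above, and with RLE factors 8 lay above. The adjusted p of Egr1 ran from 0.0022 to 1.00, and Zfp36 was called with TMM factors, no filter, 50 CPM, DESeq2 or without knockout 3.

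The log2 ratio of the summed CPM was 1.85, 3.28 with TMM factors and 4.07 with Rn45s and Lars2 kept in the total. Its spread over the knockouts was 16.1, against 6.24 without the enzymes, 4.19 with TMM factors, and 2.12 to 16.1 with a knockout left out, the lowest being without knockout 3 and 7.58 without knockout 2. With the enzymes left out, 1 of the 10 nearest genes was shared. The causes were not tested. A replicate block called 4 genes higher and 5 lower and 0 members. Deviations from the group mean in libraries of the same number had correlations of -0.0041 and 0.0032 over 882 genes. The deviations of 2 controls mirror each other and rest on few counts, so this cannot show whether the numbers pair libraries. Control depth, at 67514 and 72006 counts, limits every member.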
